A study of Mus musculus with 31 samples.

Results

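Whether oleic acid alters lung transcripts within the first hour was asked with 6 of the 31 arrays of the series, namely 3 of lungs taken 1 h after oleic acid and 3 of lungs taken 1 h after saline. They were chosen by their titles, which name the time, the injected fluid and a replicate number, and the comparison spans all genes on the array. Every mouse was a female C57Bl/6J animal, 6 weeks old, under xylazine and ketamine anaesthesia, and each received 200 µl through a tail vein. The treated mice were given oleic acid, an unsaturated fatty acid, in a dose of 1.2 µl for each g of body weight. The controls were given physiological serum, called saline here. The groups thus share age, sex, strain, anaesthesia and route, and differ in the injected fluid. The labels number the arrays of a group and do not say from which cage, day or clock time each mouse came, so spread between arrays may hold technical as well as biological variation. The series follows the same injections over 6 times from 1 to 24 h, with 18 oleic acid and 13 saline arrays in all.

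Injected oleic acid reaches the capillaries of the lung first and injures the endothelium there, so that plasma leaks into the alveoli. In such an injury, immediate early transcription factors, chemokines and endothelial adhesion molecules are classes of genes that can respond within an hour. The lung also holds a circadian clock, in which the activators Arntl (BMAL1) and Clock drive the output factor Dbp and the repressors Per, Cry and Nr1d. These repressors in turn act against the activators. A whole lung further contains blood, so red cell, platelet and leukocyte transcripts are measured beside those of lung cells. In such bulk RNA, fewer cells of a type and less RNA per cell cannot be told apart.

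Values below are log2 intensities from which the array's own 75th percentile was subtracted, so that 0 lies at that percentile and a step of 1 is a factor of 2. A difference is the oleic acid mean minus the saline mean, with its moderated 95% interval, which is not adjusted for the number of genes. Levels of different probes are not comparable with each other. The tissue label was borne out by lung genes, with Sftpc, surfactant protein C, between 9.70 and 10.30 on the 6 arrays and Scgb1a1, the club cell secretory protein, between 9.90 and 10.42.

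The 6 arrays lay on 1 slide, in one row for saline 1 to 3 and oleic acid 1 and in the next row for oleic acid 2 and 3. They differed in the share of spots well above background, which was 81.72% on saline 1, 60.73% on saline 2 and 60.33% on saline 3. On oleic acid 1, 2 and 3 it was 60.2%, 76.13% and 64.09%. Spike-in probes gave slopes on their input from 0.937 to 1.03 on the 6 arrays. Over 25029 features above background on every array, saline 3 lay closer to the oleic acid arrays than to the other saline arrays. Its median absolute difference was 0.16, 0.28 and 0.21 from oleic acid 1, 2 and 3, against 0.43 from saline 1 and 0.31 from saline 2. Counted by features that differed by more than 1, it was closer to saline 2 (1760 features) than to oleic acid 2 (2431 features), and closest to oleic acid 1 (223 features). Of 26932 features, saline 3 was inside the range of the 3 oleic acid arrays for 63.6%, saline 2 for 43.1% and saline 1 for 35.3%. Values are therefore given for each array, and the number of arrays limits the precision.

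Sequences next to the start sites of genes discussed below are shown to place the motifs through which the clock and red cell factors are known to act. They are the 250 bases before the start site, from RefSeq on build GRCm38.p6, read on the strand of the gene, with the match in capitals. The first 3 hold the E-box CACGTG, the letters bound by Arntl with Clock, which is the same on both strands.

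Per1, chr11:69098699-69098948 (+ strand): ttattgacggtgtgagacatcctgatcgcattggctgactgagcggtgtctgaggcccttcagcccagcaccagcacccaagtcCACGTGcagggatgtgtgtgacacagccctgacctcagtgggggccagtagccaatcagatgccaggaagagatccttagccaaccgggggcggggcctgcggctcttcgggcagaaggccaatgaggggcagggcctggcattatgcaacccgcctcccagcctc

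Ciart, chr3:95882229-95882478 (- strand): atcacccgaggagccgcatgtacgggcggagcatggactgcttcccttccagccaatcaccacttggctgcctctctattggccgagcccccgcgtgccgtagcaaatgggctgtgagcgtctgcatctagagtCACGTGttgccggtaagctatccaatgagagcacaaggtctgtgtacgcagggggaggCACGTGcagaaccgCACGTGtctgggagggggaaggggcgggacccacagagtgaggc

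Tef, chr15:81802423-81802672 (+ strand): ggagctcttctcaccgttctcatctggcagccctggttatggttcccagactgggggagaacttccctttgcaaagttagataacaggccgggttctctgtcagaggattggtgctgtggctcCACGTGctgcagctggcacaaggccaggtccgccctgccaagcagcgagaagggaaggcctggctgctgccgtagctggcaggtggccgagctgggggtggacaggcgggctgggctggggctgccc

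The next pair holds the D-box TTATGTAA or its complement TTACATAA, the site of Dbp, Tef and Hlf.

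Per3, chr4:151044666-151044915 (- strand): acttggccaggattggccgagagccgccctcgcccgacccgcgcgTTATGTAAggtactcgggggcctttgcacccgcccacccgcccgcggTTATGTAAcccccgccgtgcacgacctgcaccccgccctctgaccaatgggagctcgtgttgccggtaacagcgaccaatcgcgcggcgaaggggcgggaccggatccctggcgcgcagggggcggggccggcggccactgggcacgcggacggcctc

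Alb, chr5:90460620-90460869 (+ strand): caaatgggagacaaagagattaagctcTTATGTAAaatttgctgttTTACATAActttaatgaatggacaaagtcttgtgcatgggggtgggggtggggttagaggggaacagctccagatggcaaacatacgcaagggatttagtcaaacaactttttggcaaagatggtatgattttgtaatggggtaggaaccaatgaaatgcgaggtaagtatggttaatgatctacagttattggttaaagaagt

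The last holds AGATAA, or TTATCT on the other strand, the core read by the red cell factor Gata1.

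Alas2, chrX:150547167-150547416 (+ strand): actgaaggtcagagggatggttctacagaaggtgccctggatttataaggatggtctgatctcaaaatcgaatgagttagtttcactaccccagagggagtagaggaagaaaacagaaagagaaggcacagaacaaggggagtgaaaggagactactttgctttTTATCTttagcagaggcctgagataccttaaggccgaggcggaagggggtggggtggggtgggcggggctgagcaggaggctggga

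The E-box was present in 6.02% of all 32851 windows of this length, the D-box in 0.819% and AGATAA in 9.99%. Of 18 clock genes looked up, 15 had a window in the table and 5 of these held the E-box, namely Per1, Cry1, Ciart, Bhlhe41 and Tef. Per3 was the only one of the 15 with the D-box, in 2 copies, and Alb, looked up with them, also had 2. Of 9 red cell genes 7 had a window and 5 held AGATAA. A match is a description of the letters and not of binding.

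No gene passed the test at 1 h. In limma with Benjamini-Hochberg adjustment, 0 of 26945 features (0%) passed 0.05. Before adjustment 383 (1.42%) did, of which 182 were higher and 201 lower with oleic acid. The smallest adjusted p was 0.182, reached by 2 probes without a current symbol, and among the 15746 features with a symbol it was 1. The median half-width of the interval was 0.60, without adjustment for the number of features. All 3 oleic acid arrays lay above all 3 saline arrays for 3.26% of features and below them for 1.52%. The difference was above 0 for 56.9% of features, with a median of 0.04. Array weights estimated in limma turned the count of called features to 3282. That estimation stopped before convergence and gave 88.1% of the summed weight to oleic acid 1 and 7.54% to saline 2. Without saline 3 the count of unadjusted p under 0.05 was 3808, with 0 called.

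**Figure D1:**
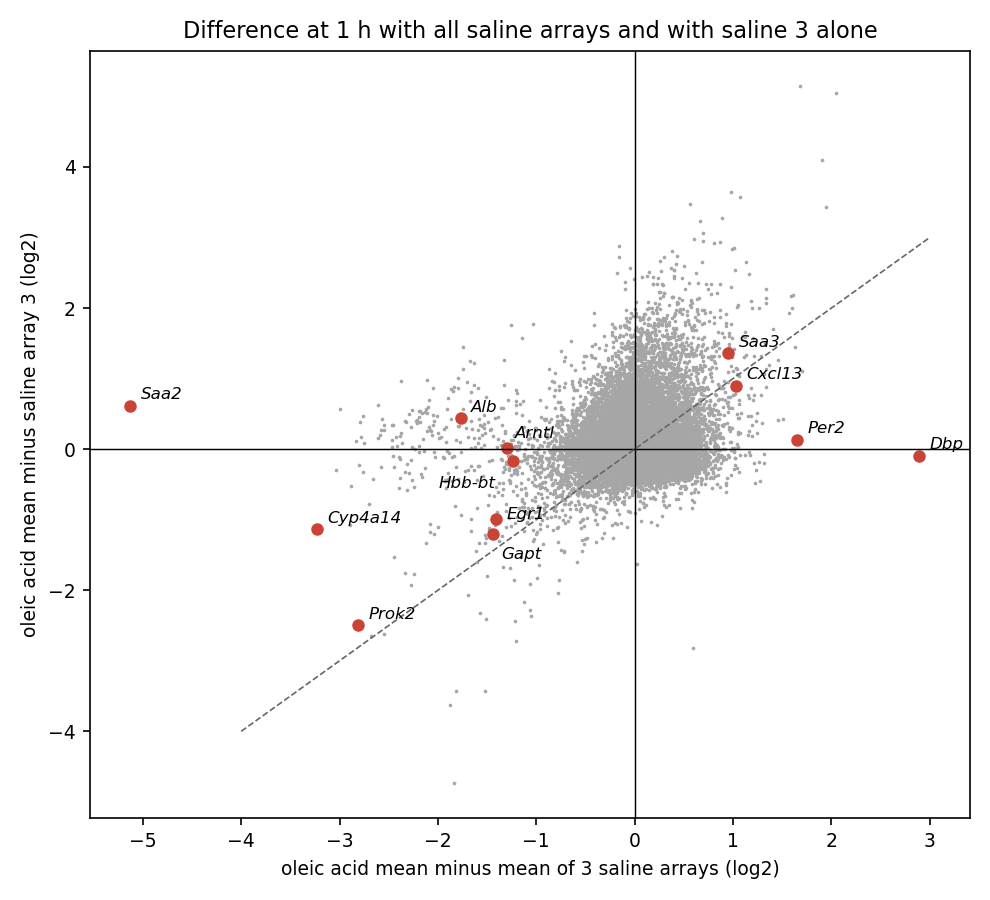
Each grey point is a feature with a value on all 6 arrays. The horizontal axis is the oleic acid mean minus the mean of the 3 saline arrays and the vertical axis the oleic acid mean minus saline 3 alone, both log2, and points on the dashed line have the same difference on both. Dbp, Per2, Arntl, Alb and Saa2 lie far from 0 on the horizontal axis and near it on the vertical one, while Prok2, Gapt, Egr1, Cxcl13 and Saa3 lie apart from 0 on both. The latter are genes whose groups do not overlap, which by itself sets them apart from saline 3. Prok2 and Gapt were not above background on any oleic acid array, so their positions are not sizes.

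Genes that lay lower in every oleic acid array included a transcription factor, a cystatin-like gene and a neutrophil ligand. Egr1, a zinc finger transcription factor of the immediate early class, was at 1.86, 1.51 and 1.06 on saline 1, 2 and 3 and at 0.30, -0.06 and -0.04 on oleic acid 1, 2 and 3. The groups did not overlap, and saline 3 was nearest to the oleic acid arrays. The difference was -1.41 (95% interval -2.01 to -0.80), and it was -0.99 with saline 3 as the only control, a setting chosen after seeing the data. All 3 oleic acid values were also below the lowest of 0.40 on the 10 saline arrays of other times and of 1.1 on 13 oleic acid arrays of other times, which leave out 2 arrays with spike-in slopes of 1.66 and 0.751. Cstdc4, a cystatin-like gene of a cluster with near-identical copies, was at 0.22, 0.32 and 0.25 with saline and at -0.52, -0.49 and -0.61 with oleic acid. Each group was tight, and the difference was -0.80 (-1.16 to -0.44). Prok2, a secreted ligand that neutrophils and clock neurons express, was at -4.18, -2.99 and -4.06 with saline and was not well above background on any oleic acid array, at -7.04, -5.65 and -6.97. In the processing used here it was at least 2.16-fold lower, counting a value below background as the lowest signal called above it.

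Of the 15 lower genes taken by smallest p, 6 were not well above background on any oleic acid array, Prok2 among them. Gapt, an adaptor protein of B cells, was at -3.79, -4.57 and -4.53 with saline and not above background with oleic acid, at least 1.47-fold lower. The taste receptor gene Tas2r113 was at -4.14, -4.14 and -3.99 with saline and likewise not above background with oleic acid, at least 1.64-fold lower. In the same way Ska3, a kinetochore subunit, was at least 1.25-fold lower, Ugt2a1, a glucuronosyltransferase, at least 1.52-fold and Hand2, a developmental transcription factor, at least 1.67-fold. Celf6, an RNA-binding protein, Mgam, a gut glucosidase, and the histone gene H4c17 were above background on every saline array and on 1 oleic acid array each, and Sycp3, a protein of meiotic chromosomes, on 2. No size is given for these 4. The 10 genes were tested because of their saline arrays, where they are high. Ssxb9, a member of a family with near-identical copies, was measured on all 6 arrays and differed by -0.65 (-1.06 to -0.23), or by -0.23 with normexp, a model-based background correction with an offset of 50, and -0.30 in the deposited table. With normexp the 6 genes not above background differed by -0.44 (Prok2), -0.15 (Gapt), -0.15 (Tas2r113), -0.18 (Ska3), -0.17 (Ugt2a1) and -0.29 (Hand2). As folds these are smaller than the bounds, which hold only for the processing used here. Of the 15, the remaining pair, Trim10 and Hbb-bs, are red cell genes and are described with those.

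Genes that lay higher in every oleic acid array were led by Cxcl13, the chemokine that draws B cells. It was at -3.14, -3.42 and -3.08 with saline and at -1.95, -2.51 and -2.07 with oleic acid, with no overlap and with saline 3 among the other saline arrays. The difference was 1.03 (0.51 to 1.56), and it was 0.50 with normexp background correction and 0.64 in the deposited table. The saline array of 1.5 h on the same slide was at -1.53, above all 3 oleic acid arrays, so the separation does not hold against that array. Ptger2, a receptor of prostaglandin E2, was at -3.07, -2.75 and -2.68 with saline and at -2.18, -2.27 and -1.93 with oleic acid. The difference was 0.71 (0.25 to 1.17), or 0.37 with normexp. Npy1r, a neuropeptide Y receptor that constricts vessels, was at -1.75, -1.68 and -1.22 with saline and at -1.01, -0.94 and -0.77 with oleic acid, and differed by 0.64 (0.15 to 1.13).

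Of the same 15, Lnx1, a ubiquitin ligase that acts on the Notch regulator Numb, differed by 0.55 (0.16 to 0.93), Mllt11 by 0.54 (0.15 to 0.92), the calcium-binding protein S100b by 0.49 (0.10 to 0.88) and the neural globin Ngb by 0.65 (0.16 to 1.15). Of these 4, Lnx1 and Ngb were at -0.48 and -1.36 on the saline array of 1.5 h, inside the range of the oleic acid arrays. Ccdc40, needed to assemble the dynein arms of cilia, differed by 0.62 (0.13 to 1.11). These values come from the brightest probe of a gene. With the mean of its kept probes the difference was 0.37 for Ccdc40, 0.31 for Lnx1 and 0.45 for Ngb. The others were Timd4, a receptor of macrophages for phosphatidylserine, at 0.84 (0.19 to 1.5), Pcdh7, a protocadherin, at 0.95 (0.22 to 1.69), Tafa1, a secreted brain protein, at 0.76 (0.16 to 1.35), Usp22, a histone deubiquitinase, at 0.71 (0.15 to 1.28), and Slx, of a multicopy family, at 0.65 (0.21 to 1.09). With normexp background correction these became 0.31 for Timd4, 0.36 for Pcdh7, 0.23 for Tafa1, 0.44 for Usp22 and 0.26 for Slx, and Ngb became 0.37. Cst9, a cystatin, was above background on 2 saline arrays and on every oleic acid array, and no size is given for it. H60b, a ligand of the natural killer receptor NKG2D, was above background on every oleic acid array and on no saline array, at least 1.7-fold higher in the processing used here. Its difference was 0.16 with normexp. Cst9 and H60b were tested because of their oleic acid arrays, where they are high. None of the 15 genes passed.

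**Figure D2:**
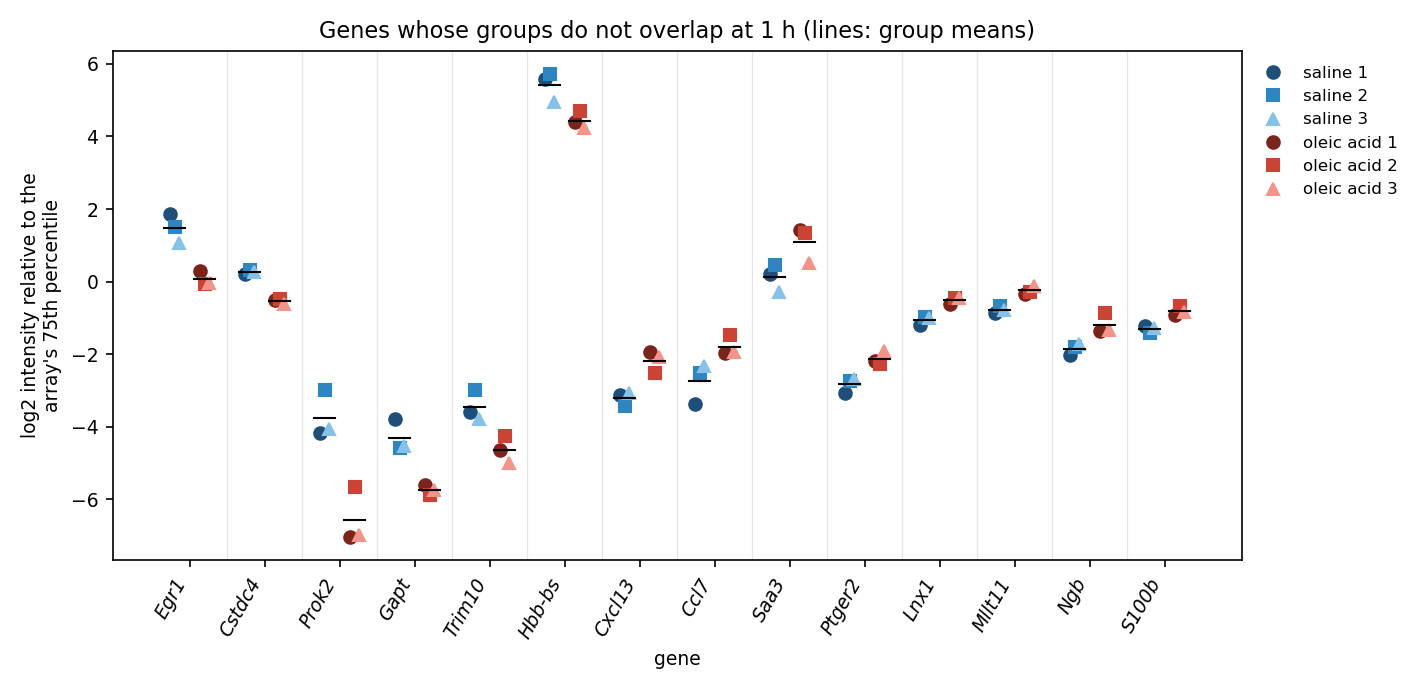
Scaled log2 intensity (vertical axis, 0 at the array's 75th percentile) of 14 genes on the 3 saline (blue) and 3 oleic acid (red) arrays, 1 symbol per array, with group means as lines. In each gene the 3 oleic acid symbols lie all above or all below the 3 saline symbols, as in 3.26% and 1.52% of all features. The oleic acid symbols of Prok2 and Gapt are values not above background.

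Clock genes separated the saline arrays from each other, and Dbp had the highest difference of all features. Dbp, which binds the D-box, was at 1.13 and 1.73 on saline 1 and 2, at 5.91 on saline 3 and at 5.78, 6.00 and 5.67 with oleic acid. Saline 3 thus lay inside the oleic acid range, and the difference of 2.89 (-0.04 to 5.82) was -0.09 against saline 3 alone. Every value of 5.67 or more was above the highest of 5.14 on the 10 other saline arrays and of 5.55 on the 13 other oleic acid arrays. The activator Arntl showed the opposite order, at 0.08 and 0.31 on saline 1 and 2, -1.77 on saline 3 and -1.68, -1.74 and -1.85 with oleic acid. Its difference was -1.30 (-2.62 to 0.02), and 0.01 against saline 3 alone. Nfil3, which competes with Dbp for the D-box, differed by -1.32 (-2.43 to -0.21), with 0.72, 1.23 and -0.58 on the saline arrays and -0.69, -1.01 and -0.88 with oleic acid.

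The repressors of the clock followed Dbp. All 9 measured repressors had a difference above 0, with a median of 0.68 beside 0.04 over all features, and in 2 of the 9 the oleic acid arrays lay above all saline arrays. Over all features the difference was above 0 for 56.9%, and 3.26% had that order. Per2 was at -2.79, -3.17 and -0.71 on the saline arrays and at -0.95, -0.59 and -0.19 with oleic acid, with a difference of 1.65 (0.07 to 3.22). Nr1d1 (REV-ERB alpha), which shuts off Arntl, was at 1.03, 1.68 and 3.37 with saline and at 3.02, 3.04 and 2.82 with oleic acid. Saline 3 was the highest of the 6. Per3 and Per1, whose promoters are shown above, were the 2 without overlap. Per3 was at -2.43, -2.36 and -1.38 against -0.85, -1.15 and -1.29, a difference of 0.96 (0.18 to 1.75). Per1, which glucocorticoids also induce, was at 4.49, 5.25 and 5.25 against 5.50, 5.72 and 5.81, a difference of 0.68 (0.05 to 1.31).

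Of 9 output genes 8 lay above 0, with a median of 0.62, beside 56.9% and 0.04 for all features. Tef, with the E-box shown above, was at 3.57, 4.12 and 5.10 with saline and 5.27, 5.23 and 5.50 with oleic acid, without overlap, a difference of 1.07 (0.12 to 2.01). Usp2, a deubiquitinase, was also without overlap, at 0.62 (0.04 to 1.21), while Hlf, a relative of Dbp, overlapped by saline 3 and differed by 1.05 (0.10 to 2.01). Wee1, a mitotic kinase, differed by 1.01 (-0.23 to 2.26), Bhlhe40, which binds E-boxes as a repressor, by 0.58 (-0.22 to 1.37), Nr1d2 by 0.98 (-0.50 to 2.46) and Ciart, with 3 E-boxes, by 0.52 (-0.42 to 1.45). Clock itself differed by -0.50 (-1.38 to 0.39), and the 4 measured activators had a median of -0.27, which was 0.09 against saline 3 alone. The median of the repressors was 0.14 and that of the output genes 0.02 when saline 3 was the only control. With normexp background correction the difference was 1.09 for Per2 and 0.64 for Wee1. The part of the clock time of sampling in these differences was not tested.

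**Figure D3:**
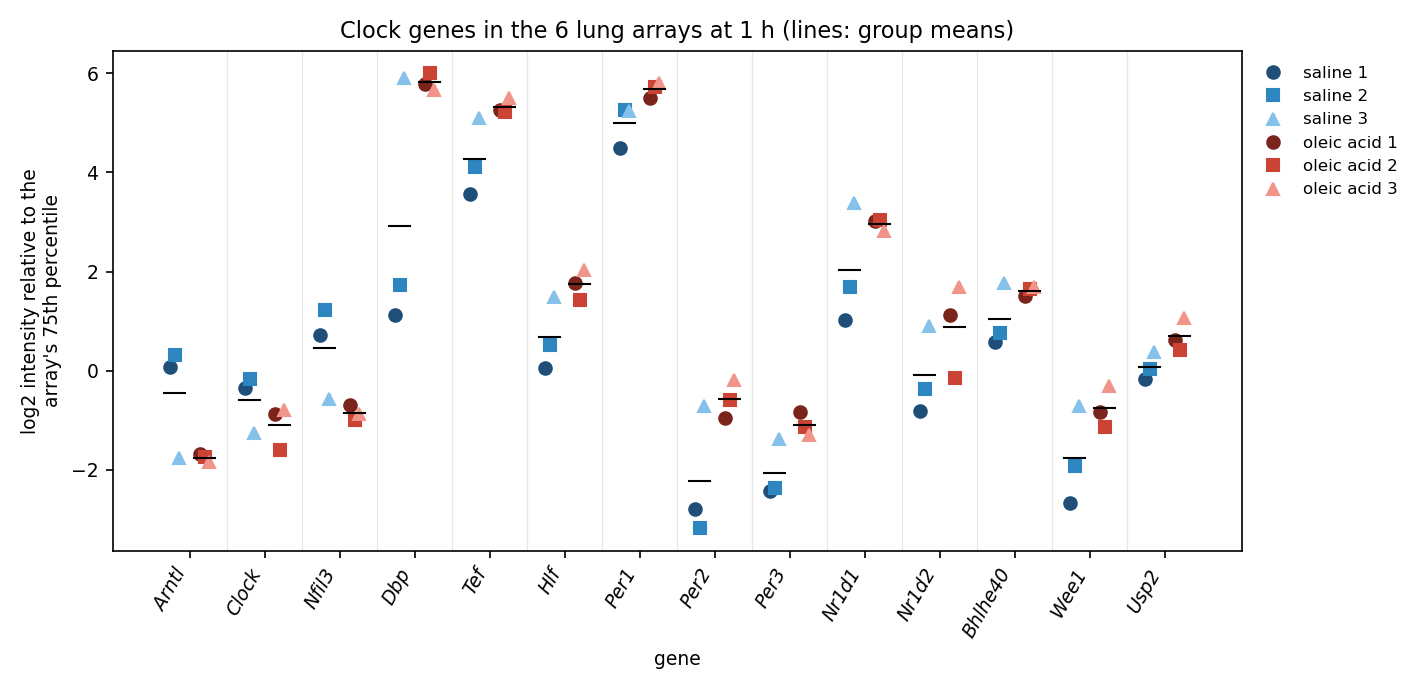
Scaled log2 intensity (vertical axis, 0 at the array's 75th percentile) of 14 clock genes on the 3 saline (blue) and 3 oleic acid (red) arrays, 1 symbol per array, with group means as lines. Saline 1 and 2 lie apart from saline 3 in most genes, as for Dbp at 1.13 and 1.73 against 5.91, and saline 3 lies with or next to the oleic acid arrays.

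Immediate early genes, whose transcription needs no new protein, lay on balance below their saline values. Of 23 measured 7 were above 0, with a median of -0.23, and Egr1 was the only one whose groups did not overlap. Over all features 56.9% were above 0 and 1.52% lay below every saline array. Klf2, a factor of endothelium under flow, was at 5.00, 5.44 and 4.10 with saline and at 4.17, 3.88 and 3.96 with oleic acid, with a difference of -0.84 (-1.69 to 0.01). Saline 3 lay inside the oleic acid range. Fosb and Fos, subunits of AP-1, differed by -0.52 (-1.08 to 0.04) and -0.39 (-1.07 to 0.29). Dusp1, a phosphatase of MAP kinases, differed by -0.47 (-1.21 to 0.27) and Nr4a1, an orphan nuclear receptor, by -0.38 (-0.94 to 0.18). Atf3, a stress factor, and Nr4a2 had values above 0, with 0.56 (-0.17 to 1.30) and 0.36 (-0.12 to 0.83). Against saline 3 alone the median of the list was -0.10, and Fos differed by -0.25 with normexp.

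Red cell genes lay lower with oleic acid. Of 22 measured erythroid markers 2 were above 0 and 7 were below every saline array, with a median of -0.52. Over all features 56.9% were above 0 and 1.52% lay below every saline array. Of the markers, Rhd and Kel were not above background on all 6 arrays, so they were tested through 1 group only. Their differences of -1.76 and -2.08 became -0.38 and -0.42 with normexp. The beta globin genes Hbb-bs, Hbb-b2 and Hbb-bt, which are near-identical copies that a probe may not tell apart, differed by -0.97 (-1.61 to -0.34), -1.03 (-1.89 to -0.16) and -1.23 (-2.33 to -0.14). Hbb-bs was at 5.57, 5.72 and 4.94 with saline and at 4.40, 4.69 and 4.23 with oleic acid. Saline 3 lay between the other saline arrays and the oleic acid arrays. All 3 oleic acid values of Hbb-bs were under the lowest of 4.83 on the 10 saline arrays and of 4.84 on the 13 oleic acid arrays of other times. Alas2, the first enzyme of haem synthesis in red cells, was at 5.60, 5.57 and 3.96 with saline and at 3.64, 3.92 and 3.57 with oleic acid, a difference of -1.33 (-2.46 to -0.21).

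Trim10, an erythroid ubiquitin ligase, was at -3.58, -2.98 and -3.79 with saline and at -4.64, -4.27 and -4.99 with oleic acid, a difference of -1.18 (-1.89 to -0.47), or -0.37 with normexp and -0.51 in the deposited table. Bpgm, which makes the haemoglobin ligand bisphosphoglycerate, differed by -0.48 (-0.96 to 0.00). The list median on saline 1, 2 and 3 was 0.81, 0.70 and 0.17 above the oleic acid mean. The sign thus held for saline 3, but 5 of 22 members lay above 0 and the median was -0.17 when it was the only control.

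Neutrophil markers had 5 of 29 above 0 and a median of -0.21, and 1 of the 29 lay below every saline array. Over all features 56.9% were above 0 and 1.52% lay below every saline array. In this list saline 3 was the array farthest from oleic acid. Its list median was 0.51 above the oleic acid mean, against 0.33 for saline 2 and -0.01 for saline 1. Wfdc21, a secreted granulocyte protein, was at 2.22, 3.21 and 1.74 with saline and 1.27, 1.24 and 0.95 with oleic acid, without overlap, a difference of -1.24 (-2.16 to -0.32). The granule genes Mpo, myeloperoxidase, and Camp, cathelicidin, split the oleic acid arrays. Camp was at 2.08, 2.81 and 2.20 with saline and at 0.35, 2.80 and 0.29 with oleic acid. Oleic acid 2, which was also the one with 76.13% of spots above background, lay with the saline arrays, and Mpo had the same order, with differences of -1.21 (-2.90 to 0.47) for Camp and -1.48 (-3.35 to 0.39) for Mpo, the latter -0.89 with normexp and -0.90 in the deposited table. The part of that share in the split was not tested. The cytosolic pair S100a8 and S100a9 differed by -0.41 (-1.17 to 0.35) and -0.44 (-1.25 to 0.36). Monocyte markers had 5 of 19 above 0 with a median of -0.14, and platelet markers 6 of 18 with a median of -0.07, which was 0.0012 without oleic acid 1. Gp9, of the platelet receptor for von Willebrand factor, was the only platelet marker below every saline array, with -0.43 (-0.88 to 0.03).

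Transcripts of liver were high on saline 1 and 2. All 8 measured members of the liver and stomach list, each a liver secretory gene, had a difference below 0, with a median of -2.08. Only for Apoa2 were the oleic acid arrays below all saline arrays. Over all features 56.9% had a difference above 0 and 1.52% lay below every saline array. Alb, albumin, was at 5.17 and 7.39 on saline 1 and 2, at 2.97 on saline 3 and at 3.44, 3.10 and 3.68 with oleic acid. The list median of saline 1, 2 and 3 was 2.21, 4.40 and -0.32 relative to the oleic acid mean. Fgb, the fibrinogen beta chain, and Ttr, transthyretin, differed by -2.46 (-5.67 to 0.75) and -2.06 (-4.54 to 0.42), and by 0.34 and 0.20 against saline 3 alone. Serpina1c, an alpha-1 antitrypsin, differed by -2.27 (-5.08 to 0.54). The intervals of these genes held 0, with saline arrays that lay several log2 units apart. The 6 members of this list that mark the stomach were not above background on every array of either group.

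The same pair of arrays was high for other genes that liver makes. The acute phase list had 6 of 19 above 0 and a median of -0.20, which was 0.13 against saline 3 alone. In it 1 member lay above and 1 below every saline array. Over all features 56.9% were above 0, 3.26% lay above every saline array and 1.52% below. The acute phase reactant Saa2 had the lowest difference of all features, -5.13 (-10.92 to 0.67), with 2.86 and 5.64 on saline 1 and 2, -4.37 on saline 3 and -4.09, -3.13 and -4.02 with oleic acid. Saa1, a near-identical relative, was at 3.74, 6.39 and -0.28 with saline and at 0.54, 0.62 and -0.30 with oleic acid. Saa3, the form made in lung and macrophages, went the other way and did not overlap. It was at 0.22, 0.46 and -0.27 with saline and at 1.42, 1.34 and 0.51 with oleic acid, a difference of 0.95 (0.17 to 1.74), and the saline array of 1.5 h on the same slide was at 2.12. The fatty acid hydroxylases Cyp4a14 and Cyp4a10, both targets of the fatty acid receptor PPAR alpha and abundant in liver, differed by -3.23 (-5.71 to -0.74) and -1.54 (-3.07 to -0.01). Cyp4a14 was at -0.35, 2.16 and -2.23 with saline and at -3.48, -3.48 and -3.16 with oleic acid, without overlap. The whole list of 34 PPAR and fasting genes had 19 above 0 and a median of 0.03, a sign that turned in 1 of 4 other scalings and without saline 1 (-0.07), saline 3 (-0.0091) or oleic acid 3 (-0.02). Among 18 genes induced by glucocorticoids 7 were above 0, with a median of -0.13 that was 0.25 against saline 3 alone, 0.12 without saline 2 and 0.08 without oleic acid 2. Tat, a liver enzyme, and the metallothionein Mt2 were highest on saline 2, with 2.79 and 6.01.

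**Figure D4:**
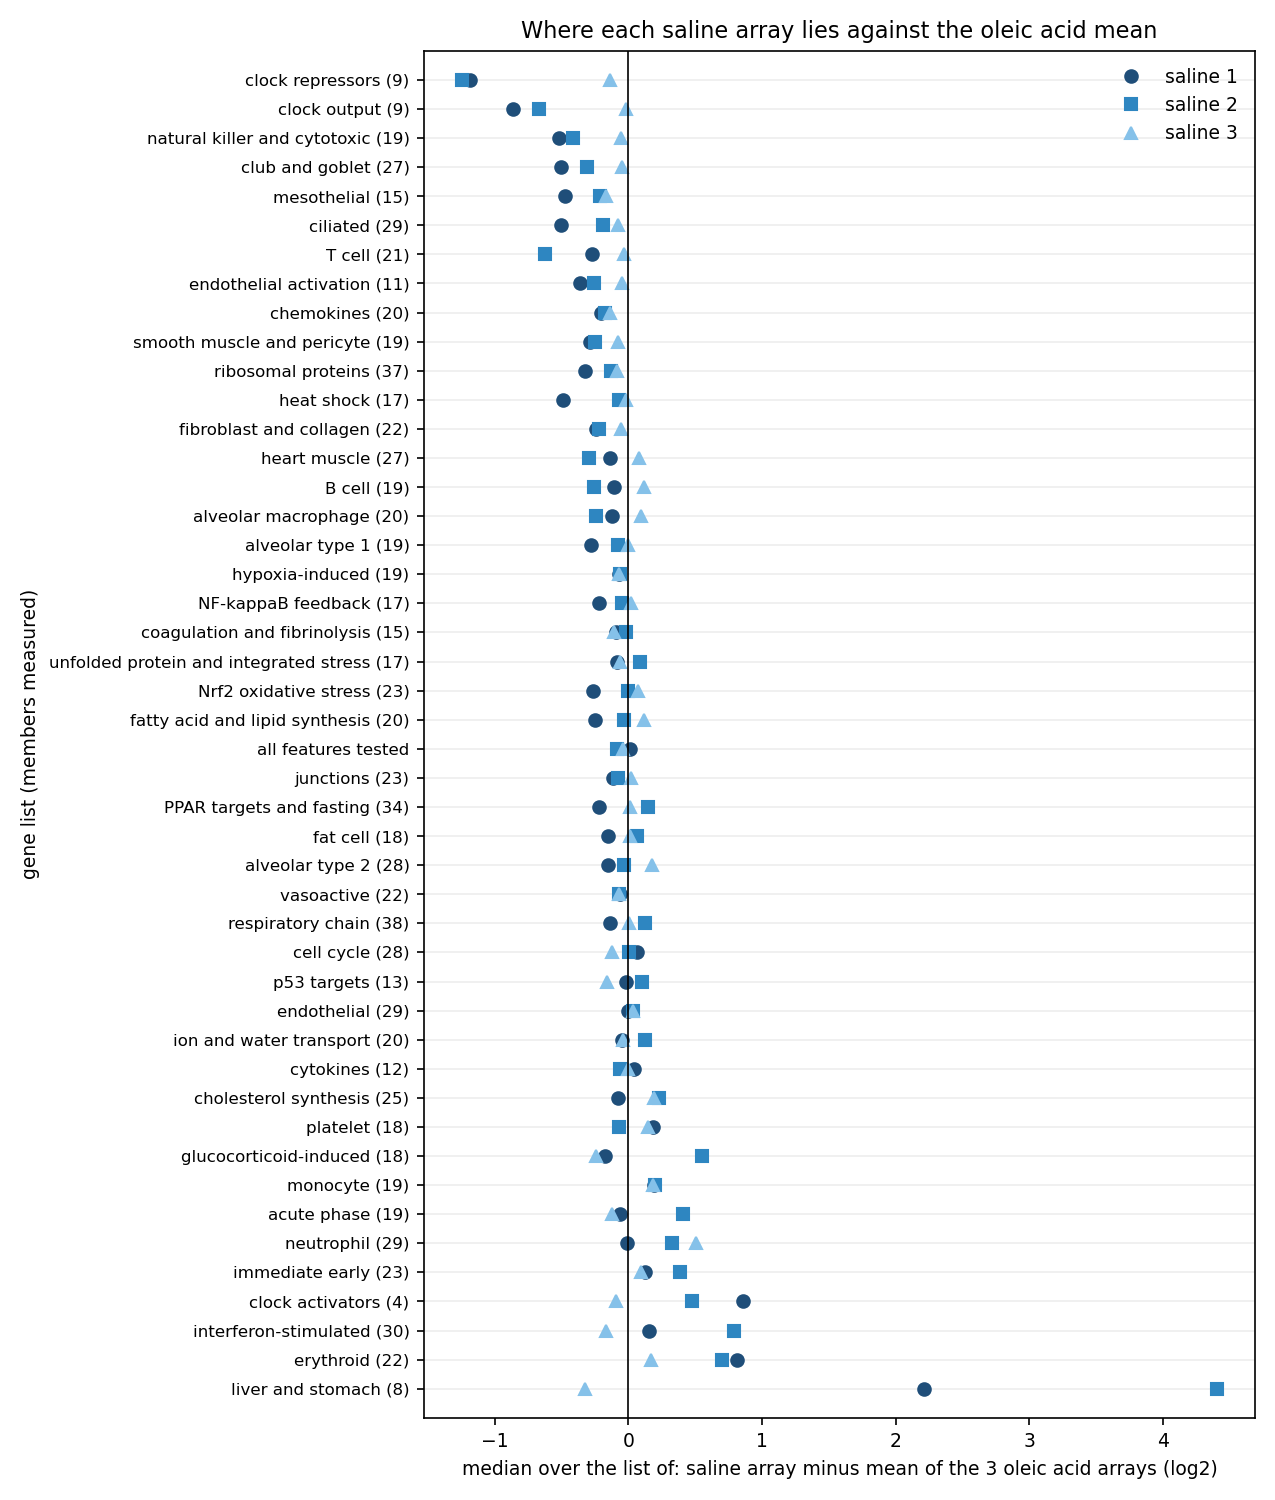
For each gene list with at least 4 measured members (vertical axis, number in parentheses) and for all features, symbols give the median over members of the value on saline 1, 2 or 3 minus the mean of the 3 oleic acid arrays (horizontal axis, log2). Saline 1 and 2 stand apart from 0 for liver, red cell and clock lists, at up to 4.40, while saline 3 stays between -0.32 and 0.51 in every list shown.

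Inflammatory mediators were next. Of 20 measured chemokines 16 lay above 0, with a median of 0.22, and for 4 the oleic acid arrays were above all saline arrays, beside 56.9% and 3.26% of all features. The median against saline 3 alone was 0.14. Besides Cxcl13 these were Ccl7 and Ccl8, which draw monocytes, and Cxcl16, a membrane-bound ligand of T cells, with differences of 0.94 (0.16 to 1.73), 0.44 (-0.01 to 0.88) and 0.20 (-0.20 to 0.61). Ccl7 was at -3.39, -2.51 and -2.32 with saline and at -1.97, -1.47 and -1.94 with oleic acid, and its difference was 0.47 with normexp. That of Cxcl16 was 0.13 in the deposited table. Ccl17, which draws T cells, overlapped by saline 3 and differed by 0.43 (-0.08 to 0.94). Ccl5, another T cell chemokine, was at 4.31, 4.26 and 5.03 with saline and at 4.94, 5.14 and 4.93 with oleic acid, so that saline 3 lay with the oleic acid arrays. Cxcl15, lungkine, made by alveolar and airway epithelium, differed by -0.42 (-0.93 to 0.08). The neutrophil chemokines Cxcl2, Cxcl3 and Cxcl5 were not above background on every array of either group.

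Of 12 measured cytokines 5 were above 0, with a median of -0.02, which was 0.03 without saline 1, oleic acid 1 or oleic acid 3. Over all features 56.9% were above 0, 3.26% lay above every saline array and 1.52% below. Il1b, the inflammasome cytokine, was at 1.42, 2.21 and 2.04 with saline and at 1.78, 1.52 and 0.64 with oleic acid, and the macrophage cytokine Tnf was at -3.68, -3.35 and -2.39 against -2.41, -2.46 and -3.00. The groups overlapped in each. Il6 and Il1a were not above background on every array of either group. Among 17 genes of the NF-kappaB feedback loop 12 were above 0, with a median of 0.07. Relb, a subunit, differed by 0.36 (-0.09 to 0.80) and Bcl3, a nuclear regulator, by -0.34 (-0.73 to 0.05), each without overlap. Interferon-stimulated genes had 5 of 30 above 0 and a median of -0.28. The median was 0.17, with 25 of 30 above 0, against saline 3 alone, and 0.02 without saline 2. Of the 30, 1 lay above and 2 lay below every saline array. Saline 2 was the high array of this list, 0.79 above the oleic acid mean. The interferon-inducible GTPase Igtp was at 2.77, 4.90 and 2.86 with saline and at 2.90, 2.36 and 2.47 with oleic acid. Its relatives Irgm1 and Gbp5 differed by -0.59 (-1.35 to 0.16) and -0.98 (-2.45 to 0.48).

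The endothelium is the first tissue that injected oleic acid meets. Of 11 measured genes of endothelial activation 10 lay above 0, with a median of 0.24, which was 0.05 with 6 above 0 against saline 3 alone. For 2 of the 11 the oleic acid arrays lay above every saline array. Over all features these shares were 56.9% above 0 and 3.26% above every saline array. Selp, P-selectin, which leukocytes and platelets bind, was at -3.00, -2.77 and -2.30 with saline and at -1.89, -1.77 and -2.42 with oleic acid, with a difference of 0.67 (0.01 to 1.32), or 0.31 with normexp. The saline array of 1.5 h on the same slide was at -0.53. Esm1, endocan, was at 2.35, 2.31 and 2.30 with saline and at 2.68, 2.49 and 2.99 with oleic acid, and the adhesion molecule Vcam1 was at 2.31, 2.37 and 2.34 against 2.52, 2.51 and 2.70. Neither overlapped, and the differences were 0.40 (-0.05 to 0.85) and 0.24 (-0.13 to 0.61). Icam1 was at -0.08, 0.44 and 1.80 with saline and at 1.28, 1.39 and 1.24 with oleic acid, and Vwf, von Willebrand factor, differed by 0.26 (-0.16 to 0.69). The 29 markers of endothelial identity had a median of 0.01, a sign that turned in 3 of 4 other scalings and without saline 1 (-0.0071), saline 3 (-0.03) or oleic acid 3 (-0.0012).

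Genes of barrier and fluid transport stayed near the median of all features. The 23 junction genes had a median of 0.04, the 20 ion and water transport genes one of -0.02, the 19 markers of alveolar type 1 cells one of 0.09 and the 28 of alveolar type 2 cells one of 0.03, the last turning sign in 1 other scaling and without saline 1 (-0.06) or saline 2 (-0.0043). The median of the ion and water transport genes was 0.09 without oleic acid 2. In the 4 lists 2 members did not overlap between groups, 1 higher and 1 lower, beside 3.26% and 1.52% of all features. The lower was Scd1, a fatty acid desaturase, with -0.18 (-0.60 to 0.24). Lyz2, lysozyme of type 2 cells and macrophages, differed by 1.04 (-0.28 to 2.36) with saline 3 at 5.69 against 5.49, 5.36 and 5.42 with oleic acid. Among 22 vasoactive genes the median was 0.02, which turned sign in 2 other scalings and was -0.02 without saline 1. Alox15, a lipoxygenase, was at -1.86, -1.88 and -2.16 with saline and at -0.58, 0.11 and -2.10 with oleic acid, with a difference of 1.11 (-0.21 to 2.43). Ptgis, prostacyclin synthase, lay above every saline array, with 0.28 (-0.08 to 0.64). Bdkrb1, the inducible receptor of kinins and not on that list, did so too, with 0.83 (0.15 to 1.51), or 0.42 with normexp. Adm, adrenomedullin, was at 0.55, 0.45 and -1.07 with saline and at -1.05, -1.28 and -0.38 with oleic acid. Of 15 coagulation genes 10 were above 0, beside 56.9% of all features. F3, tissue factor, differed by 0.63 (-0.16 to 1.42). Plau, urokinase, was above background on every saline array and no oleic acid array, at least 1.41-fold lower. Plau was tested because of its saline arrays, where it is high, and differed by -0.21 with normexp.

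Several lists of cells outside the alveolar wall lay above 0 as a whole. Beside them, 56.9% of all features were above 0 and 3.26% lay above every saline array. Of 27 club and goblet cell genes 25 were above 0, with a median of 0.30, and 5 had no overlap. Muc5b and Muc5ac, the gel-forming airway mucins, were at 4.00, 4.34 and 4.63 against 4.78, 4.98 and 5.01, and at -2.98, -2.43 and -1.68 against -1.66, -1.06 and -1.44, with differences of 0.60 (0.09 to 1.11) and 0.98 (0.11 to 1.85), the latter 0.51 with normexp. Tff2, a mucus peptide, was at 0.96, 1.22 and 2.30 with saline and at 2.28, 2.45 and 2.43 with oleic acid. Scgb3a2, an airway secretoglobin, differed by 0.44 (-0.16 to 1.04). Of 29 ciliated cell genes 26 were above 0, with a median of 0.26 and 5 without overlap, among them Dnah11, a ciliary dynein, with 0.29 (-0.08 to 0.66). All 15 mesothelial genes, markers of the lung surface, were above 0, with a median of 0.29 and 5 without overlap. Upk3b was at 0.47, 1.25 and 1.54 with saline and at 1.69, 1.73 and 1.83 with oleic acid, and Msln, mesothelin, differed by 0.27 (-0.16 to 0.70).

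Smooth muscle and pericyte genes had 16 of 19 above 0, a median of 0.19 and 5 without overlap. Acta2, smooth muscle actin, was at 4.92, 5.08 and 5.15 with saline and at 5.40, 5.44 and 5.56 with oleic acid, a difference of 0.42 (0.04 to 0.80). Tagln, an actin-binding protein, was at 5.80, 5.79 and 5.69 against 5.95, 6.12 and 6.21, and Myl9, a myosin light chain, differed by 0.42 (0.01 to 0.82). Fibroblast and collagen genes had 17 of 22 above 0, a median of 0.14 and 5 without overlap, with Mfap5, of elastic microfibrils, at 0.38 (0.00 to 0.76), Col1a2 at 0.38 (-0.05 to 0.82) and Col3a1 at 0.32 (-0.05 to 0.68). On the slide as a whole 3.26% of features had this order. Against saline 3 alone the medians of the airway, mesothelial, smooth muscle and fibroblast lists ran from 0.05 to 0.17, beside 0.04 for all features.

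Lymphocyte lists were similar. Of 21 T cell genes 19 were above 0, with a median of 0.25 and 5 without overlap, and of 19 natural killer and cytotoxic genes 15, with a median of 0.33 and 3 without overlap. Of all features 56.9% were above 0 and 3.26% lay above every saline array. Cd3d, of the T cell receptor complex, differed by 0.53 (0.02 to 1.04), Il7r, the interleukin 7 receptor, by 0.73 (0.07 to 1.39) and Trat1, an adaptor of that complex, by 1.06 (0.15 to 1.98), the last 0.51 with normexp and 0.62 in the deposited table. Klrd1 (CD94), a natural killer receptor, differed by 0.43 (0.01 to 0.86) and the granule protease Gzmb by 0.49 (-0.15 to 1.14). Relative to the oleic acid mean, the medians of both lists were -0.04 and -0.05 on saline 3, -0.27 and -0.52 on saline 1 and -0.63 and -0.41 on saline 2. The 19 B cell genes had a median of 0.11 and the 20 of alveolar macrophages one of 0.10, and both were below 0, at -0.11 and -0.09, against saline 3 alone. The B cell median was -0.02 without saline 2.

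Markers of tissues next to the lung gave a median of 0.14 for 27 heart muscle genes, 0.03 for 18 fat cell genes and -0.03 for the 3 measured thymus genes, the last turning sign in 3 other scalings and without saline 3 (0.03), oleic acid 1 (0.11) or oleic acid 3 (0.07). The fat cell median was -0.13 without oleic acid 3. No member of these lists was without overlap.

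Stress and metabolic lists gave small values. Hypoxia-induced genes had a median of 0.09 over 19 measured, heat shock genes 0.17 over 17, genes of the unfolded protein and integrated stress responses 0.06 over 17, oxidative stress genes under Nrf2 0.05 over 23 and p53 targets 0.01 over 13, the last turning sign in 2 other scalings. Without 1 array the unfolded protein median was -0.02 (saline 1) or -0.0020 (oleic acid 2) and the Nrf2 median -0.01 (saline 1 or oleic acid 3). No member of these 5 lists was without overlap. Hspa1a, an inducible heat shock protein, was at -3.01, -2.77 and -1.17 with saline and at -1.72, -1.08 and -0.95 with oleic acid, a difference of 1.07 that was 0.59 with normexp. Nqo1, a quinone reductase, differed by 0.64 (-0.03 to 1.30), or 0.33 with normexp, Pfkfb3, an activator of glycolysis, by 0.69 (-0.12 to 1.51) and the stress hormone Gdf15 by -1.28 (-2.65 to 0.09), with saline 3 at -2.12 and the oleic acid arrays at -2.12, -2.25 and -1.92. Cholesterol synthesis genes had 8 of 25 above 0 with a median of -0.07, which was -0.19 against saline 3 alone. The sterol reductase Tm7sf2 was at 1.15, 1.96 and 0.92 with saline and 0.69, 0.68 and 0.75 with oleic acid, and Idi1, which makes isoprene units, at 1.71, 2.02 and 1.51 against 1.40, 0.82 and 1.46. Both were without overlap, beside 1.52% of all features that lay below every saline array. In the 20 genes of fatty acid and lipid synthesis the median was 0.05, or -0.05 without saline 1, with Acaca, the carboxylase of its first step, below every saline array at -0.29 (-0.70 to 0.11). Ribosomal protein genes had 34 of 37 above 0, a median of 0.19 and 5 above every saline array, beside 56.9% and 3.26% of all features, with Rps3 at 0.36 (-0.06 to 0.78), and the 38 respiratory chain genes had a median of 0.02, which turned sign in 2 other scalings and without saline 1 (-0.05), oleic acid 1 (-0.0046) or oleic acid 3 (-0.0034). The 28 cell cycle genes had the same median, also turning in 2 and without saline 2 (-0.02), saline 3 (-0.03) or oleic acid 2 (-0.02), and 3 of them, Top2a, Mcm5 and Mcm6, lay above every saline array.

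Probes without a current symbol had the smallest adjusted p. These 4 were chosen after their values were seen. A probe on chromosome X (mm9, 34379060 to 34379119) was the only one of the 4 above background on all 6 arrays, at -1.47, -1.30 and -1.39 with saline and at -2.97, -3.18 and -2.82 with oleic acid. The difference was -1.60 (-2.01 to -1.19; limma adjusted p = 0.487), or -0.87 with normexp. Other arrays spanned both groups, from -3.12 to -1.11 with saline. A probe on chromosome 8 (40250220 to 40250279) and another on chromosome 1 (183833782 to 183833841) had no oleic acid array above background. They were at least 1.48-fold and 1.97-fold lower in the processing used here (limma adjusted p = 0.182 for both). With normexp their differences ran from -0.44 to -0.32, and in the deposited table from -0.66 to -0.55. Both probes were tested because of the group where they are high. Among features above background on all 6 arrays the smallest limma adjusted p was 0.928. A probe on chromosome 17 (47017151 to 47017210) was at least 2.12-fold higher, with no saline array above background. It was likewise tested because of the group where it is high, and differed by 0.26 with normexp. What the array's design says is at these positions was not used here.

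Whether the effect at 1 h differed from that at 4 h, the next time with all arrays on 1 slide, was tested on 11 arrays, with 3 oleic acid and 2 saline arrays at 4 h. In limma, 0 of 27145 features (0%) passed 0.05 after adjustment and 755 (2.78%) before it. The lowest adjusted p of this comparison was 0.968. The lowest differences of effects among the 10 genes with the smallest p belonged to Cyp3a59, a drug-metabolising enzyme of liver and gut, with an effect of -1.95 at 1 h and 2.99 at 4 h. At 1 h it was at -1.01 and 0.99 on saline 1 and 2 and at -2.76 on saline 3. Tyw3, an enzyme of transfer RNA modification, had effects of -0.18 and 2.37, Ms4a6b, a membrane protein of leukocytes, 0.15 and 1.75, Naa15, a subunit of the N-terminal acetyltransferase, 0.26 and 1.16, and Igfals, which carries insulin-like growth factors in blood, -1.09 and 1.14. In the other direction Ngb had effects of 0.65 and -0.45, Bicc1, an RNA-binding protein, 0.44 and -0.33, Bdkrb1 0.83 and -0.47, Cryga, a crystallin above background on 1 of the 3 saline arrays of 1 h, 0.49 and -1.05, and Palm3, a paralemmin, 0.05 and -1.26. Some of these effects rest on low signal at 4 h. The 4 h saline arrays were at -6.41 and -5.05 for Cyp3a59, -5.32 and -6.19 for Tyw3 and -5.02 and -5.58 for Igfals. For Cryga, oleic acid 2 and 3 of 4 h were at -5.58 and -6.03. Values this low are near those of probes not above background at 1 h, so the sizes of these effects are uncertain. Bicc1 was tight, at 3.46, 3.53 and 3.66 with saline and at 3.98, 3.99 and 4.00 with oleic acid at 1 h. Cxcl13 was above 0 at both times, with 1.03 and 2.53, and Egr1 below it, with -1.41 and -0.34.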

How the data were processed

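RNA of 1 lung sample per array (200 ng, Cy3) was hybridised to 1-colour Agilent mouse arrays. Scans were quantified by the authors in Agilent's program Feature Extraction (version 10.5.1.1 in the submitters' processing notes), and its output, per the file headers, gives background-subtracted intensity per spot on a linear scale, with flags for outliers and for signal well above background. The authors also deposited a table of log2 values whose columns share 1 distribution, and its further processing is not given in the sources used here.

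Here the processed intensity of 55681 probes was put on a log2 scale after division by the 75th percentile of each array, without control spots and outlier flags. Probes well above background on every array of a group were kept, and the brightest stood for a gene. Of the probes, 26680 were named through RefSeq accessions, 2542 by their own symbol and 26459 not at all. Probe positions are those of the array design on mm9, and promoters those of GRCm38.p6. The groups were compared with limma 3.58.1 in R 4.3.3 (lmFit and eBayes, 2-sided) with Benjamini-Hochberg adjustment over all 26945 features, and the code was tested on simulated data. Adjusted p-values in the text come from this fit. No term for slide was needed, since the 6 arrays share 1.

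Named were, in each direction, the 15 genes with the smallest p among those whose groups did not overlap, 5 genes of each of 46 lists by smallest p with members needed for their role, and 5 in each direction from the comparison with 4 h. The members and lists were chosen with earlier results of these data known. Deviations of same-numbered arrays from the mean of their group correlated at -0.63, -0.48 and 0.26, and the arrays were not treated as paired. Deviations within a group cancel, so these correlations depend on each other. The highest correlation of deviations, 0.67, was between saline 1 and oleic acid 2, which had the largest shares of spots above background. These values cannot tell whether mice were paired by day or cage, which was not tested. A bound for a probe not above background sets it to the lowest signal called above background on that array, or its own if higher. Such a bound holds only for the processing used here, and the differences with normexp were smaller than the bounds given. Alternatives covered background correction, scaling, the deposited table, filters, probes of a gene, array weights, other arrays in the fit and each replicate left out. With 3 arrays against 3, an exact permutation test of a single gene cannot go below 0.1. Some genes are not reported here.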

Additional observations from a re-analysis of the deposited data

How the results depend on the processing

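No feature was called at 1 h with an adjusted p under 0.05 in limma under any setting tried other than array weights, with 3282 called. Leaving out each replicate in turn gave 0 called at 1 h and 0 for the comparison of 1 h with 4 h, and the smallest adjusted p then ran from 0.219 to 1 and from 0.0837 to 1. With the replicate number as a block the counts were 0 and 0, with 372 and 417 features at an unadjusted p under 0.05.

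No alternative set out at the start turned the sign of a named 1 h difference. Saline 3 as the only control, chosen after seeing the data, turned 25. They became -0.0933 for Dbp, 0.0129 for Arntl, 0.16 for Clock, -0.41 for Nr1d1, -0.0127 for Nr1d2, -0.15 for Bhlhe40, -0.0461 for Wee1, -0.0362 for Atf3, -0.27 for Lyz2, 0.44 for Alb, 0.20 for Ttr, 0.31 for Serpina1c, 0.34 for Fgb, 0.57 for Saa1, 0.62 for Saa2, -0.02 for Ccl5, -0.24 for Tnf, -0.50 for Icam1, 0.022 for Gbp5, 0.17 for Adm, -0.0791 for Hspa1a, 0.0236 for Gdf15, -0.062 for Rpl5, 0.45 for Tat and 0.43 for Mt2. The difference of Naa15 from later times became 0.0229 and 0.136 against the mean effect of 1.5, 3 and 4 h over 29 and 31 arrays. The cause was not tested. Of 136 differences, 41 moved by more than 1.5 times with normexp and 29 in the deposited table, each toward 0. Leaving out 1 array turned the sign of the median of 17 of 46 lists at least once. Probes near background have only a bound, and 3 arrays a group limit the precision.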
